A study of Rattus norvegicus with 10 samples.

Results

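The interferon response genes of the rat kidney cortex were compared between Kcnj16_m1 and SS_WT rats. They were taken by name, as the rows of the expression table whose symbol begins with Ifi, Irf, Oas, Gbp, Ifnar, Ifngr or Stat with a digit, together with 16 exact names of known interferon-stimulated genes and sensors such as Mx1, Isg15, Rsad2 and Ubd, of which 14 matched a symbol. The rule used no measured value and found 69 of 32545 genes. Of these, 58 passed a filter of at least 0.5 FPKM (fragments per kilobase of gene length, scaled to the depth of the library) in at least 5 libraries, as did 13971 genes in all. Libraries of polyadenylated RNA were made from left kidney cortex. Both groups were male, 11 to 12 weeks old and on the Dahl salt-sensitive strain background. The Kcnj16_m1 group (n = 5) carries a mutation in Kcnj16, which encodes a subunit of inward-rectifier potassium channels on kidney tubule cells, and the SS_WT group (n = 5) is wild type. The labels name no tissue-restricted driver of the mutation and no agent or diet that set the groups apart.

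Interferons are cytokines released on infection or tissue damage. Type I interferons bind the Ifnar1 and Ifnar2 receptor and act through a complex that includes Stat2 and Irf9 and binds the interferon-stimulated response element (ISRE). Interferon gamma binds Ifngr1 and Ifngr2 and acts through the gamma-activated site (GAS). The genes switched on include RNA sensors, antiviral GTPases and antigen-processing proteins, and in the kidney they can be expressed by tubule cells, endothelium and resident leukocytes alike.

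In the Kcnj16_m1 cortex 22 of the 58 tested genes were lower and 1 was higher than in SS_WT (limma, Benjamini-Hochberg adjusted p under 0.05 over all tested genes). These are 37.9% and 1.72% of the tested members, whereas 14.0% of all tested genes were lower and 14.6% higher, 28.5% together. The fold changes of all members ran the same way in 50 of 58 genes below 0, or 86.2%, against 48.5% of all tested genes. Their median log2 fold change (Kcnj16_m1 minus SS_WT, on the log2(FPKM + 0.5) scale) was -0.29, and that of all tested genes was 0.0079. The genes that fell furthest were the ubiquitin-like modifier Ubd, Ifitm10, the interferon-induced chaperone Rtp4 and the myeloid transcription factor Irf8. The transcripts of the signalling factors Stat2 and Irf9 did not pass. Because this is bulk tissue, fewer cells of a type and less RNA per cell cannot be told apart.

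**Figure D1:**
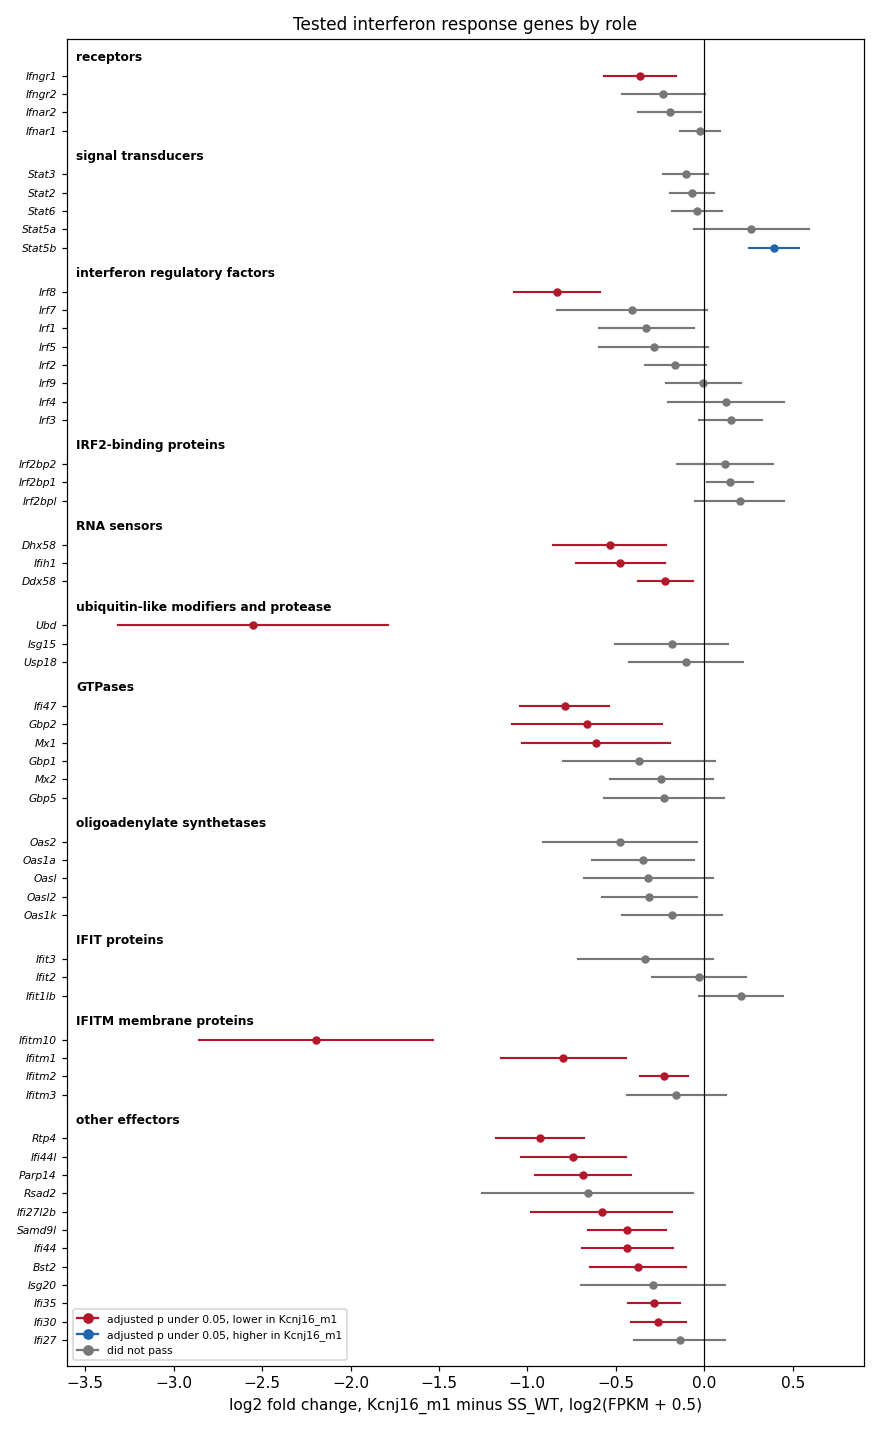
Log2 fold change (Kcnj16_m1 minus SS_WT, log2(FPKM + 0.5)) with its 95% interval for 56 of the 58 tested genes, grouped by role; red genes passed lower, blue passed higher and grey did not pass. The RNA sensors and most of the other effectors lie left of 0, while Stat2 and Irf9 lie close to it and Stat5b lies to the right.

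The groups themselves were sequenced to 16361516 to 23385968 recovered reads per Kcnj16_m1 library and 16541364 to 16863579 per SS_WT library. Kcnj16 averaged 326 ± 13.3 FPKM in Kcnj16_m1 and 347 ± 21.6 FPKM in SS_WT (SD, n = 5 each), did not pass (log2 fold change -0.09, limma adjusted p = 0.278), and a mutation that leaves the transcript in place cannot be checked this way. Markers of the labelled tissue were present, as 14 of 14 tubule and glomerulus markers were tested and summed to 4087 to 4379 FPKM in Kcnj16_m1 and 2702 to 3977 FPKM in SS_WT. Replicates are numbered 1 to 5 within a group in the order of deposit, which only names them. The labels do not tie libraries to separate animals, so the p-values rest on a spread between libraries that may be technical.

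Promoter sequence shows which of the genes that fell carry a recognisable interferon element close to their start. The windows of 250 bases before to 50 after each gene start came from RefSeq (assembly GRCr8), where 53 of the 69 genes matched a window, 51 by symbol and 2 by an older symbol. The ISRE core was searched as GAAANNGAAA and the GAS core as TTCNNNGAA, on both strands. An ISRE core was found in 20 of 53 windows, or 37.7%, and in 3.92% of the 33469 windows of the same length in the table. Among genes that were lower it was found in 7 of 16 windows, and among those that did not pass in 9 of 27. A GAS core was found in 13 of 53 windows, or 24.5%, against 8.87% of all windows, with 5 of 16 among the lower genes and 6 of 27 among those that did not pass. A match describes the letters only. Shown here are the upstream bases around the ISRE matches of the 7 lower genes that hold one, read along the gene's own strand up to at most its start, with the matched letters in capitals.
Ifi44l: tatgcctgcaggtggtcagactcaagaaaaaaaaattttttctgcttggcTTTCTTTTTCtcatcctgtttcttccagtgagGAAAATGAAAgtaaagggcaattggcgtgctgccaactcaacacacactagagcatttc
Parp14: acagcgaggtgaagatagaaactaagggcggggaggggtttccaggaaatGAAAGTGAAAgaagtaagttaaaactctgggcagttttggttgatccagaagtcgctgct
Gbp2: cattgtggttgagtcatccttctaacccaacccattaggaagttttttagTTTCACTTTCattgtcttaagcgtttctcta
Ifih1: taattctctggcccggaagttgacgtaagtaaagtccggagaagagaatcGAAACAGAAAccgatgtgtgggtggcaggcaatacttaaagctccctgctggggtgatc
Ifi44: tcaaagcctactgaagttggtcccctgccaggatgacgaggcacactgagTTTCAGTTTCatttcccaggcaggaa
Bst2: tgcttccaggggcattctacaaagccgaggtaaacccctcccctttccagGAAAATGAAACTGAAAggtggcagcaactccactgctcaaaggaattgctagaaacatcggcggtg
Ifitm2: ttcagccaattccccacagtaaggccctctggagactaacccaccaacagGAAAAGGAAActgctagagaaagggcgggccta
In GRCr8 these stretches are chr2:243328582-243328722 (plus strand) for Ifi44l, chr11:78408008-78408117 (plus) for Parp14, chr2:234005646-234005726 (plus) for Gbp2, chr3:67683969-67684077 (minus) for Ifih1, chr2:243303841-243303916 (minus) for Ifi44, chr16:18255033-18255148 (minus) for Bst2 and chr1:205482349-205482431 (minus) for Ifitm2. The first match began 91 bases before the start of Ifi44l, 76 before Parp14, 31 before Gbp2, 59 before Ifih1, 26 before Ifi44, 131 before Bst2 and 33 before Ifitm2. Ifi44l and Bst2 each hold 2 matches, and Ifi44 holds another after its start. In Bst2 the 2 matches overlap each other, and a GAS match overlaps the first of them. Parp14 also holds a GAS match, just before its ISRE match. Genes that did not pass held the core as well, among them Irf7, Oas1a, Oasl2, Ifit3, Ifitm3, Gbp5 and Rsad2. Of the lower genes, Ubd, Ifitm10, Mx1, Ifi30, Ifi35, Ifngr1 and Samd9l held neither core in their windows. Irf8 and Ifi47 held a GAS core but no ISRE core. Among the lower genes without a window were Rtp4, Ifitm1, Ddx58, Dhx58 and Ifi27l2b.

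The ligands come first in the pathway, and they are outside the naming rule. Of 15 interferon genes listed, 9 were in the table and 0 passed the filter. Ifna2, Ifna4, Ifna5, Ifna16l1 and Ifne were listed at 0 in every library. Ifnb1, Ifng, Ifnk and Ifnl3 did not exceed 0.133 FPKM in any library, so a difference in the ligands was not detectable at this depth.

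Of the 4 receptor chains, Ifngr1 fell and the other 3 did not pass, which is 25.0% lower, beside 14.0% of all tested genes. Ifngr1, the ligand-binding chain for interferon gamma (ENSRNOG00000012074), stood at 22.3, 28.4, 28.7, 25.5 and 22.6 FPKM in Kcnj16_m1 replicates 1 to 5, against 29.7, 37.0, 36.1, 29.8 and 31.9 FPKM in SS_WT replicates 1 to 5. Every Kcnj16_m1 library lay below every SS_WT library, with a log2 fold change of -0.36 (SE 0.09, limma adjusted p = 0.0144). Groups did not overlap in this way for 14 of the 58 tested members, or 24.1%, against 19.2% of all tested genes; 13 of the 14 were lower, or 22.4% of the tested members, against 9.34% of all, and 1 was higher, or 1.72%, against 9.88% of all. Its partner Ifngr2 averaged 6.99 ± 0.616 FPKM in Kcnj16_m1 and 8.36 ± 1.43 FPKM in SS_WT (log2 fold change -0.23, 95% interval -0.47 to 0.0039, adjusted p = 0.127). The type I receptor chain Ifnar2 averaged 5.60 ± 0.468 and 6.49 ± 0.715 FPKM in Kcnj16_m1 and SS_WT (adjusted p = 0.0953). Ifnar1 averaged 12.8 ± 0.244 FPKM in Kcnj16_m1 and 13.1 ± 0.834 FPKM in SS_WT, and its interval of the log2 fold change, -0.14 to 0.09, held 0. Ifnar2, Ifnar1 and Ifngr2 lie side by side on chromosome 11 (31539016 to 31712611 in the deposited table's own coordinates, of a build that the sources used here do not name), and none of these 3 passed.

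Stat2 and Irf9, both parts of the type I complex, and Stat3 did not pass. Stat2 stood at 8.34, 9.07, 9.78, 9.61 and 9.65 FPKM in Kcnj16_m1 and at 9.20, 9.89, 9.51, 10.1 and 10.1 FPKM in SS_WT. The groups overlapped, and Stat2 averaged 9.29 ± 0.594 FPKM in Kcnj16_m1 and 9.76 ± 0.395 FPKM in SS_WT (interval -0.19 to 0.05, adjusted p = 0.385). Stat3, which mainly carries signals of the interleukin-6 family, averaged 34.5 ± 1.48 FPKM in Kcnj16_m1 and 37.2 ± 2.90 FPKM in SS_WT (adjusted p = 0.201). Irf9, the DNA-binding partner of Stat2, averaged 10.3 ± 0.911 FPKM in Kcnj16_m1 and 10.3 ± 1.38 FPKM in SS_WT, with an interval of -0.22 to 0.21. Transcript level says nothing of the phosphorylation through which these proteins are switched on.

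Stat5b was the 1 member that rose. Stat5b (ENSRNOG00000019075), which carries growth hormone and interleukin-2 family signals, stood at 11.5, 10.4, 11.4, 10.8 and 11.0 FPKM in Kcnj16_m1, against 8.76, 8.29, 7.13, 8.59 and 8.79 FPKM in SS_WT. The lowest Kcnj16_m1 library was above the highest SS_WT library, and the log2 fold change was 0.39 (SE 0.06, limma adjusted p = 0.0018). Its close relative Stat5a averaged 5.14 ± 0.497 FPKM in Kcnj16_m1 and 4.28 ± 1.09 FPKM in SS_WT and did not pass (adjusted p = 0.198). Stat6, the transducer of interleukin-4, averaged 8.19 ± 0.533 and 8.44 ± 0.644 FPKM in Kcnj16_m1 and SS_WT and did not pass (adjusted p = 0.673), and it overlaps Nab2 on the opposite strand. Dhx58, Stat5b, Stat5a and Stat3 are neighbours on chromosome 10 (88599680 to 88842233), where Dhx58 fell and Stat5b rose.

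Among the interferon regulatory factors (IRFs), Irf8 fell. Irf8, which drives macrophage and dendritic cell development (ENSRNOG00000017869, chromosome 19, 54314865 to 54336640), stood at 4.98, 5.12, 6.05, 5.23 and 6.17 FPKM in Kcnj16_m1, against 9.02, 9.35, 12.2, 8.59 and 12.3 FPKM in SS_WT. The groups were well apart, with a log2 fold change of -0.83 (SE 0.11, limma adjusted p = 0.00071). Irf1, a target of interferon gamma that induces antigen presentation genes, averaged 8.33 ± 1.51 and 10.5 ± 1.41 FPKM in Kcnj16_m1 and SS_WT (log2 fold change -0.33, adjusted p = 0.0656).

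Irf7, the factor that amplifies type I interferon production, differed within the Kcnj16_m1 group more than between the groups. It stood at 10.3, 10.3, 7.05, 12.1 and 18.0 FPKM in Kcnj16_m1 and at 13.5, 14.4, 13, 16.4 and 17.3 FPKM in SS_WT. The first 4 Kcnj16_m1 libraries lay below all SS_WT libraries, while Kcnj16_m1 replicate 5 lay above all of them, and the gene did not pass (log2 fold change -0.41, adjusted p = 0.133). Without that library Irf7 passed lower (log2 fold change -0.58, adjusted p = 0.0167). It overlaps Phrf1 on the opposite strand, and its reads are uncertain for that reason. Irf3, the factor that the sensors activate first, averaged 58.9 ± 2.94 FPKM in Kcnj16_m1 and 53.4 ± 6.62 FPKM in SS_WT (log2 fold change 0.15, adjusted p = 0.196) and overlaps Bcl2l12. Irf2, Irf4 and Irf5 did not pass, with log2 fold changes of -0.16, 0.12 and -0.29. The IRF2-binding proteins Irf2bp1, Irf2bp2 and Irf2bpl, which the naming rule takes in although they are corepressors and not interferon targets, had log2 fold changes of 0.15, 0.12 and 0.20, and 0 of 3 passed.

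The RNA sensors of the cytosol were the one role in which every tested gene fell, 3 of 3, beside 14.0% of all tested genes. Ifih1, which detects long duplex RNA, stood at 3.04, 3.17, 2.73, 3.02 and 3.67 FPKM in Kcnj16_m1 and at 3.56, 4.99, 5.40, 3.89 and 5.05 FPKM in SS_WT (log2 fold change -0.48, SE 0.11, limma adjusted p = 0.0113). Dhx58, a related helicase that tunes the other two, stood at 2.38, 2.48, 2.46, 2.93 and 4.59 FPKM in Kcnj16_m1 and at 4.18, 4.05, 4.49, 5.0 and 4.36 FPKM in SS_WT (log2 fold change -0.54, SE 0.15, adjusted p = 0.0197). In both genes only Kcnj16_m1 replicate 5 reached into the SS_WT range. Ddx58, which detects short RNA with uncapped ends, fell least, with a mean of 8.31 ± 0.443 FPKM in Kcnj16_m1 and 9.79 ± 0.976 FPKM in SS_WT (log2 fold change -0.22, adjusted p = 0.0402). The Ddx58 call was lost under 10 of 19 alternatives, at adjusted p up to 0.0917.

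Ubd showed the lowest fold change of all 58 genes. Ubd, a ubiquitin-like protein that marks other proteins for the proteasome and is induced by interferon gamma and tumour necrosis factor (ENSRNOG00000000768, chromosome 20, 1876173 to 1897814), stood at 11.3, 9.92, 13.9, 9.10 and 14.5 FPKM in Kcnj16_m1, against 52.8, 92.6, 157, 31.6 and 69.9 FPKM in SS_WT. The Kcnj16_m1 libraries lay close together and all below the SS_WT libraries, which spread widely (log2 fold change -2.55, SE 0.35, limma adjusted p = 0.000752). Ubd overlaps Vhll and Olr1746 on the opposite strand, so its reads are uncertain where the libraries were not strand-specific. Isg15, an antiviral modifier that is among the strongest type I targets, stood at 4.49, 4.75, 3.5, 4.61 and 6.45 FPKM in Kcnj16_m1 and at 6.45, 4.49, 4.93, 4.87 and 6.48 FPKM in SS_WT. The groups overlapped and the gene did not pass (log2 fold change -0.18, 95% interval -0.50 to 0.14, adjusted p = 0.369). Usp18, the protease that removes Isg15 and damps the type I receptor, averaged 2.74 ± 0.516 FPKM in Kcnj16_m1 and 2.99 ± 0.635 FPKM in SS_WT (adjusted p = 0.637).

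**Figure D2:**
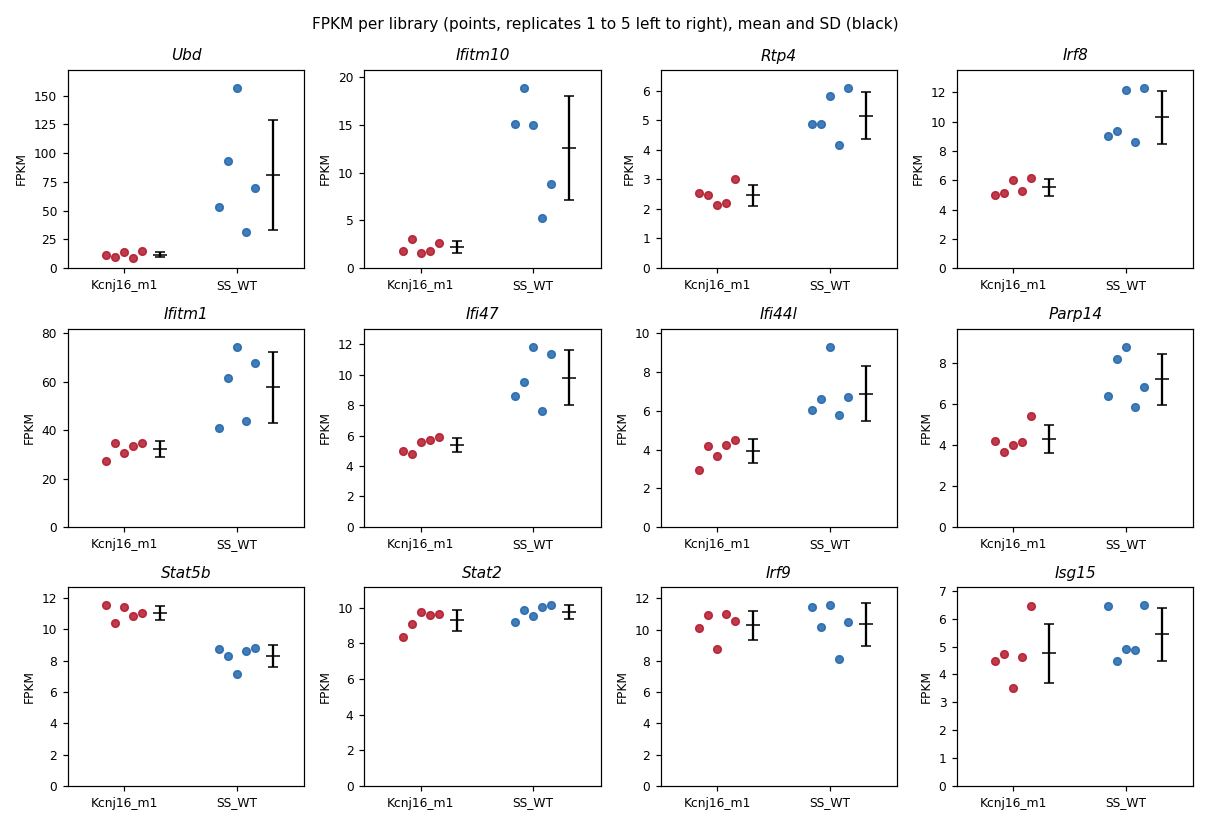
FPKM of 12 genes in each library (points, replicates 1 to 5 from left to right), Kcnj16_m1 left of SS_WT, with the mean and SD of each group in black; each axis starts at 0. Ubd, Ifitm10, Rtp4, Irf8, Ifitm1, Ifi47, Ifi44l and Parp14 show no overlap and lie lower in Kcnj16_m1, Stat5b lies higher without overlap, and the groups of Stat2, Irf9 and Isg15 overlap.

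Among the GTPases 3 of 6 tested genes fell, beside 14.0% of all tested genes. Ifi47, a rodent immunity-related GTPase that acts on pathogen vacuoles, stood at 5.0, 4.78, 5.54, 5.72 and 5.90 FPKM in Kcnj16_m1, against 8.59, 9.55, 11.8, 7.58 and 11.3 FPKM in SS_WT. The groups did not overlap (log2 fold change -0.79, SE 0.12, limma adjusted p = 0.00106). Gbp2, a guanylate-binding protein induced by interferon gamma, stood at 4.32, 4.53, 5.23, 5.24 and 6.56 FPKM in Kcnj16_m1 and at 6.06, 9.27, 13.1, 6.13 and 9.24 FPKM in SS_WT (log2 fold change -0.67, adjusted p = 0.0255). Mx1, a dynamin-like GTPase that blocks influenza viruses, stood at 3.24, 2.74, 2.11, 3.92 and 5.33 FPKM in Kcnj16_m1 and at 5.28, 5.74, 4.64, 4.64 and 6.55 FPKM in SS_WT (log2 fold change -0.61, adjusted p = 0.034). In Gbp2 and Mx1 the overlap came from Kcnj16_m1 replicate 5 alone, and the call was lost under 4 of 19 alternatives for Gbp2 and 7 of 19 for Mx1, at adjusted p up to 0.0602 and 0.107. The neighbour of Mx1 on chromosome 11, Mx2, averaged 5.80 ± 1.33 FPKM in Kcnj16_m1 and 6.87 ± 0.756 FPKM in SS_WT and did not pass (log2 fold change -0.24, adjusted p = 0.19). Gbp1 and Gbp5 had log2 fold changes of -0.37 and -0.23 and did not pass, and Gbp3 and Gbp4 were below the filter. The Gbp genes on chromosome 2 are close copies, and reads may be split between them.

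None of the oligoadenylate synthetases, which activate the antiviral RNase L, passed the test: 0 of 5 tested, with 3 at an unadjusted p under 0.05. Of all 13971 tested genes, 5745 were at an unadjusted p under 0.05. The log2 fold changes of the tested synthetases were all below 0, at -0.48 for Oas2, -0.35 for Oas1a, -0.32 for Oasl, -0.31 for Oasl2 and -0.18 for Oas1k. Oas1a stood at 2.09, 1.71, 1.48, 1.81 and 2.75 FPKM in Kcnj16_m1 and at 2.31, 2.73, 2.54, 2.36 and 3.08 FPKM in SS_WT (adjusted p = 0.0713). Again Kcnj16_m1 replicate 5 alone overlapped SS_WT. Oas1d, Oas1e, Oas1h, Oas1i and Oas3 were below the filter. The Oas1 genes are close copies of each other on chromosome 12, so their reads are uncertain. The IFIT proteins, which bind foreign RNA ends, had log2 fold changes of -0.33 for Ifit3, -0.03 for Ifit2 and 0.21 for Ifit1lb, and 0 of 3 passed, with 0 at an unadjusted p under 0.05. Ifit1 was below the filter, with at most 2 reads in a library.

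The IFITM proteins, which sit in membranes and hinder the entry of enveloped viruses, fell in 3 of 4 tested genes (75.0%). Of all tested genes 14.0% fell. Ifitm10, a relative whose role is little known (ENSRNOG00000020164, chromosome 1, 215515764 to 215536980), stood at 1.79, 3.09, 1.61, 1.79 and 2.64 FPKM in Kcnj16_m1, against 15.1, 18.9, 15, 5.29 and 8.79 FPKM in SS_WT. The highest Kcnj16_m1 library lay below the lowest SS_WT library (log2 fold change -2.20, SE 0.30, limma adjusted p = 0.000801). Ifitm1 stood at 27.2, 34.8, 30.7, 33.6 and 34.5 FPKM in Kcnj16_m1, against 40.7, 61.5, 74.5, 43.7 and 67.7 FPKM in SS_WT (log2 fold change -0.80, adjusted p = 0.0048), again without overlap. Ifitm2 averaged 141 ± 6.80 and 165 ± 12.8 FPKM in Kcnj16_m1 and SS_WT (log2 fold change -0.23, adjusted p = 0.0181). Ifitm3 averaged 70.1 ± 6.63 FPKM in Kcnj16_m1 and 79.3 ± 16.1 FPKM in SS_WT and did not pass (adjusted p = 0.375). Ifitm1, Ifitm2 and Ifitm3 adjoin each other on chromosome 1 (within 213744796 to 213818222) and are similar in sequence, so that reads may be shared, whereas Ifitm10 lies apart. Ifitm5, Ifitm6 and Ifitm7 were below the filter.

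Of the other effectors, 9 of 12 fell (75.0%, beside 14.0% of all tested genes). Rtp4, a chaperone of receptors on their way to the membrane (ENSRNOG00000028895), stood at 2.52, 2.47, 2.12, 2.19 and 3.02 FPKM in Kcnj16_m1, against 4.86, 4.87, 5.81, 4.15 and 6.10 FPKM in SS_WT (log2 fold change -0.93, SE 0.11, limma adjusted p = 0.000435). Parp14, a mono-ADP-ribosyltransferase, stood at 4.18, 3.64, 3.98, 4.14 and 5.43 FPKM in Kcnj16_m1, against 6.39, 8.18, 8.79, 5.83 and 6.81 FPKM in SS_WT (log2 fold change -0.69, adjusted p = 0.00279). Ifi44l stood at 2.93, 4.20, 3.65, 4.26 and 4.47 FPKM in Kcnj16_m1, against 6.05, 6.6, 9.32, 5.78 and 6.70 FPKM in SS_WT (log2 fold change -0.74, adjusted p = 0.00296). None of these 3 overlapped between the groups. Ifi44, its neighbour on chromosome 2, fell as well (log2 fold change -0.43, adjusted p = 0.0183).

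Bst2, the tether that holds budding viruses at the cell surface, stood at 19.1, 22.4, 21.4, 23.7 and 26.8 FPKM in Kcnj16_m1 and at 26.9, 30.0, 24.7, 27.7 and 39.5 FPKM in SS_WT (log2 fold change -0.37, adjusted p = 0.0415). Kcnj16_m1 replicate 5 and SS_WT replicate 3 were the libraries that crossed, and the call was lost under 10 of 19 alternatives, at adjusted p up to 0.0972. Samd9l, a translation repressor, averaged 5.56 ± 0.382 FPKM in Kcnj16_m1 and 7.78 ± 1.29 FPKM in SS_WT without overlap (log2 fold change -0.44, adjusted p = 0.00884). Smaller falls were seen for Ifi35, with a log2 fold change of -0.28 (adjusted p = 0.0108), and for Ifi30, the lysosomal thiol reductase of antigen processing, with -0.26 (adjusted p = 0.0187). Ifi27l2b had a log2 fold change of -0.58 (adjusted p = 0.0347) and passed under 12 of 19 alternatives, while its neighbour and relative Ifi27 averaged 122 ± 15.9 and 135 ± 20.5 FPKM in Kcnj16_m1 and SS_WT and did not pass.

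Rsad2, which makes a nucleotide that stops viral RNA synthesis, had a fold change close to that of Gbp2 and Parp14 but a wider spread in SS_WT relative to its mean. It stood at 2.84, 2.54, 2.13, 1.38 and 3.75 FPKM in Kcnj16_m1 and at 3.43, 4.73, 7.44, 2.36 and 3.97 FPKM in SS_WT. The groups overlapped and it did not pass (log2 fold change -0.66, SE 0.27, adjusted p = 0.0915). Isg20, an RNA exonuclease, had a log2 fold change of -0.29 and did not pass.

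**Figure D3:**
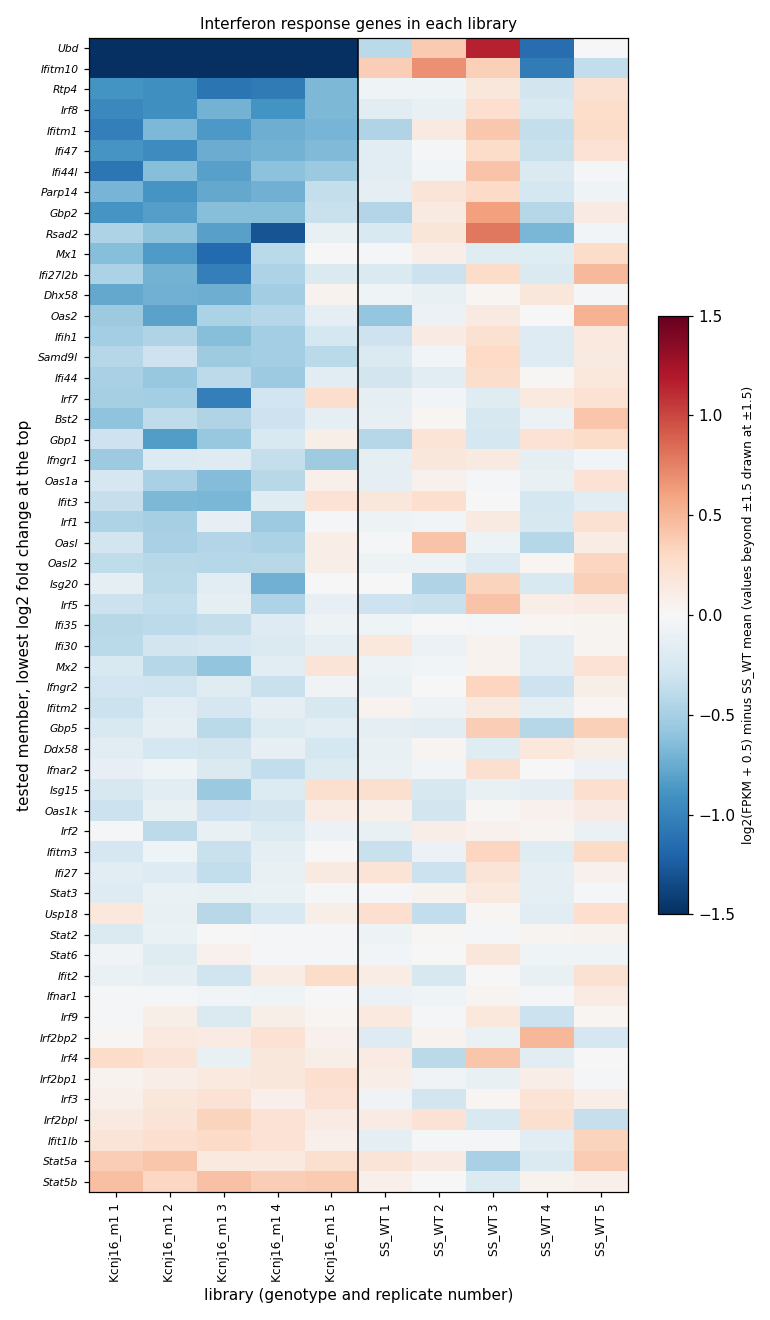
The same 56 genes (rows, lowest log2 fold change at the top) in each library (columns, Kcnj16_m1 replicates 1 to 5 and then SS_WT replicates 1 to 5) as log2(FPKM + 0.5) minus the SS_WT mean; blue is lower, red is higher, and values beyond 1.5 in either direction are drawn at the end of the scale. Kcnj16_m1 replicate 5 is paler or redder than the other Kcnj16_m1 libraries in many rows, and Stat5b, in the bottom row, is red in all 5 Kcnj16_m1 libraries.

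Single libraries stood apart across these genes. Kcnj16_m1 replicate 5 was the highest of its group in 38 of 58 members, or 65.5%, whereas it was the highest for 25.0% of all tested genes. The median deviation of the members from the SS_WT mean was -0.02 in that library and between -0.38 and -0.28 in the other 4 Kcnj16_m1 libraries. It was the highest in 5 of 5 oligoadenylate synthetases, 5 of 6 GTPases and 11 of 12 other effectors, but in 1 of 4 IFITM genes. It was also highest in 25 of 54 other type I targets, 21 of 30 interferon gamma targets and 7 of 21 nucleic acid sensing genes. The same held for 9 of 18 tubular injury, 5 of 11 endothelial and 5 of 14 tubule and glomerulus markers. In these lists, in the same order, it was the lowest of its group for 4, 2 and 5 markers. It was highest in 7 of 20 macrophage and dendritic cell markers and 1 of 11 T and NK cell markers. Of the signal transduction genes outside the rule it was highest in 4 of 18. Kcnj16_m1 replicate 5 had the fewest reads of the Kcnj16_m1 libraries, 16361516. The number in its label directly follows those of SS_WT replicates 4 and 5, while the labels of the other Kcnj16_m1 libraries are numbered consecutively before these; what the label numbers stand for is not stated. The part of depth or of the numbering in the result was not tested.

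Without Kcnj16_m1 replicate 5, 27 members were lower and 1 was higher, and the median log2 fold change was -0.33. Irf7, Irf1, Mx2, Oas1a, Oasl2 and Ifit3 then passed lower, and Ddx58 no longer passed. The share of all tested genes that passed in this fit is not given here. A shift in calls over all genes can therefore not be told apart from one in the members. In the SS_WT group, replicate 5 was highest in 24 of 58 members (41.4%, against 14.1% of all tested genes) and replicate 3 in 20 (34.5%, against 23.2%). SS_WT replicate 4 was lowest in 20 of 58 (34.5%, against 19.7%).

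The rest of the pathway was read from lists of genes outside the naming rule, which share a few genes with each other. Of 54 tested further type I interferon targets, 22 were lower and 1 was higher, with a median log2 fold change of -0.19. The lower ones are 40.7%, beside 14.0% of all tested genes. They include Dtx3l and Parp9, which work as a pair in ubiquitin and ADP-ribose signalling. Dtx3l averaged 2.08 ± 0.189 FPKM in Kcnj16_m1 and 3.43 ± 0.372 FPKM in SS_WT (log2 fold change -0.61, adjusted p = 0.000905), and Parp9 had a log2 fold change of -0.62 (adjusted p = 0.00257). Slfn2, which restrains immune cell proliferation in the mouse, fell by 0.73 on the log2 scale (adjusted p = 0.00213). Tmem140 was the gene of this list that rose, with a log2 fold change of 0.39 (adjusted p = 0.00187).

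Of 30 tested targets of interferon gamma, 20 were lower (66.7%, beside 14.0% of all tested genes) and 1 was higher, with a median log2 fold change of -0.43. Cxcl11, a chemokine for activated T cells, stood at 4.13, 3.86, 4.39, 4.02 and 4.40 FPKM in Kcnj16_m1, against 7.76, 14.8, 17.9, 9.63 and 13 FPKM in SS_WT. The groups were far apart (log2 fold change -1.44, adjusted p = 0.000575). Psme2, a subunit of the proteasome activator used in antigen processing, fell by 0.50 on the log2 scale (adjusted p = 0.00124). Serping1, the inhibitor of complement component C1, fell by 0.82 (adjusted p = 0.00208).

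Of 18 tested genes of interferon signal transduction and its brakes, 6 were lower and 2 higher (median log2 fold change -0.11), that is 33.3% lower and 11.1% higher beside 14.0% and 14.6% of all tested genes. Socs1, which blocks the kinases of both receptors, stood at 5.16, 5.96, 3.91, 7.85 and 2.17 FPKM in Kcnj16_m1, against 2.22, 1.70, 2.03, 1.98 and 1.43 FPKM in SS_WT. It rose (log2 fold change 1.13, adjusted p = 0.0085), and Kcnj16_m1 replicate 5 was the lowest of its group and within the SS_WT range. The phosphatases Ptpn2 and Ptprc had log2 fold changes of -0.49 (adjusted p = 0.00249) and -0.86 (adjusted p = 0.00174), and Ptprc is also the common leukocyte antigen. Nmi, a partner of Stat proteins and of Ifi35, had a log2 fold change of -0.73 (adjusted p = 0.00309). Of 21 tested genes of nucleic acid sensing, 6 were lower and 1 higher, together 33.3%, which is near the 28.5% of all tested genes. The one higher was Mavs, the mitochondrial adaptor of Ifih1 and Ddx58, which averaged 21.7 ± 1.15 FPKM in Kcnj16_m1 and 16.1 ± 1.24 FPKM in SS_WT (log2 fold change 0.42, adjusted p = 0.00102). Unc93b1, which carries nucleic-acid-sensing Toll-like receptors to endosomes, and Tlr8 fell, with log2 fold changes of -0.62 (adjusted p = 0.00287) and -0.75 (adjusted p = 0.00884).

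Markers of cells that could carry these transcripts moved as well. Of 20 tested macrophage and dendritic cell markers, 14 were lower (70.0%, beside 14.0% of all tested genes) and 0 higher (median log2 fold change -0.64), and the 22 markers in the table summed to 270.9 to 327.4 FPKM in Kcnj16_m1 and 383.6 to 655.3 FPKM in SS_WT. Laptm5 and Tyrobp, both found in myeloid cells, had log2 fold changes of -0.86 (adjusted p = 0.000959) and -0.78 (adjusted p = 0.0018). Of 11 tested T and NK cell markers, 8 were lower (72.7%) and 0 higher, with sums over 15 markers of 17.2 to 21.7 FPKM in Kcnj16_m1 and 28.9 to 43.0 FPKM in SS_WT. The B and plasma cell markers summed to 2.29 to 2.74 FPKM in Kcnj16_m1 and 3.78 to 6.45 FPKM in SS_WT over 9 genes, of which the 1 tested, Igj, was lower.

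For plasmacytoid dendritic cells, the classical producers of type I interferon, 0 of 4 tested markers passed, with 1 at an unadjusted p under 0.05. Of all 13971 tested genes, 5745 were at an unadjusted p under 0.05. Those 4 markers leave out Irf8 and Bst2, which the naming rule took as members and which both fell. The 7 plasmacytoid markers in the table, again without Irf8 and Bst2, summed to 12.4 to 14.9 FPKM in Kcnj16_m1 and 12.8 to 15.2 FPKM in SS_WT. The 9 neutrophil markers were all below the filter, with Elane and Mpo listed at 0 in every library. Endothelial markers went the other way, with 7 of 11 tested higher (63.6%, beside 14.6% of all tested genes) and 0 lower, and sums of 230 to 246 FPKM in Kcnj16_m1 and 170 to 206 FPKM in SS_WT. Tubule and glomerulus markers were higher in 7 of 14 tested and lower in 1, with a median log2 fold change of 0.26, and their sums given above did not overlap. The part of any of these cell types in the interferon response genes was not tested.

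Markers of tubular injury had the lowest median log2 fold change of the lists examined here, -0.99, with 15 of 18 tested lower (83.3%, beside 14.0% of all tested genes) and 0 higher. Havcr1, a receptor that damaged proximal tubules put on their surface, stood at 0.521, 0.196, 0.238, 0.495 and 0.384 FPKM in Kcnj16_m1, against 15.1, 25.8, 42.3, 5.85 and 19.5 FPKM in SS_WT (log2 fold change -4.44, adjusted p = 0.000101). The SS_WT libraries stood in the same order for Havcr1 as for Ubd, from replicate 4 at the low end through replicates 1, 5 and 2 to replicate 3, an order noted after the values were seen. The 19 injury markers in the table summed to 374 to 456 FPKM in Kcnj16_m1 and 762 to 3553 FPKM in SS_WT. SS_WT replicate 3 was the highest of its group in 14 of 18 injury markers and 13 of 20 macrophage and dendritic cell markers, and SS_WT replicate 4 the lowest in 14 and 9. The part of tubular injury in the interferon response genes was not tested.

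**Figure D4:**
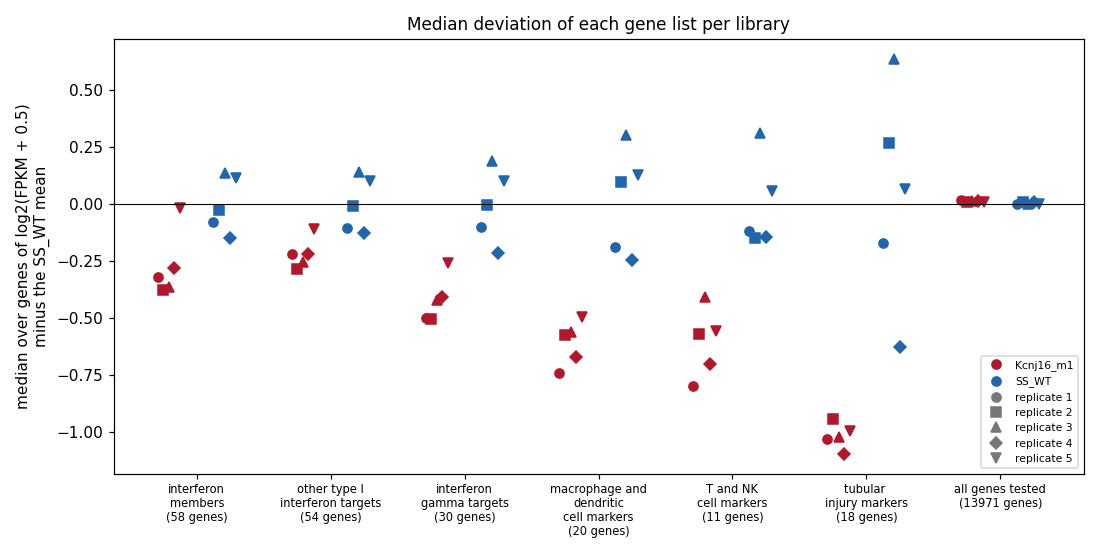
Median over the genes of a list of log2(FPKM + 0.5) minus the SS_WT mean, for each library (red Kcnj16_m1 left, blue SS_WT right, symbols for replicates 1 to 5). Kcnj16_m1 replicate 5 lies at -0.02 for the interferon response genes and within the SS_WT range there, at -0.26 for interferon gamma targets, and at -0.50 for macrophage and dendritic cell markers, while all tested genes lie near 0 in every library.

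The remaining 11 of the 69 genes were not tested: Gbp3, Gbp4, Ifit1, Ifitm5, Ifitm6, Ifitm7, Oas1d, Oas1e, Oas1h, Oas1i and Oas3. They held between 0 and 30 recovered reads in a library and fell below the filter, so the main fit gives no difference for them. Some tested members were little deeper, such as Isg20 with 14 to 34 reads. Ifitm7 and Oas1d were listed at 0 in every library. In all, 8 of the 69 genes overlap another gene of the table, 7 of them tested. Leaving those out gave 21 lower and 1 higher of 51.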

How the data were processed

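Expression had been measured by RNA sequencing of poly-A RNA in 10 libraries. The authors deposited 1 FPKM value per gene and library, made with featureCounts 1.5.0-p3, HISAT2 2.0.5, StringTie 1.3.3b and fastp, in no stated order, per the submitters' processing notes. Genome build and annotation were not given in the sources used here. The labels' protocols describe both directional and non-directional libraries without saying which was made, so overlapping genes on opposite strands are uncertain. FPKM multiplied by gene length gave whole reads for 100% of values within a tolerance of 0.05 reads, whose sums are the depths. Pairs of libraries within a group differed by a chi-square per gene of 6.91 to 41.8, above sampling noise. Every value column belonged to a labelled sample.

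Groups were taken from the genotype labels. Differences on log2(FPKM + 0.5) were fitted with limma 3.58.1 in R 4.3.3 (eBayes with trend), for genes reaching 0.5 FPKM in 5 or more libraries. The two-sided p-values of all 13971 genes were adjusted together (Benjamini-Hochberg), with a threshold of 0.05. Errors after ± are SDs over 5 libraries. The fit was tested on simulated data with the same scatter setting for every gene and no library that stood apart. That run cannot show how the fit handles libraries that stand apart, as some do here. The genes and lists were chosen with earlier results of these data known, so counts are set beside those of all genes, without a test of a list. Genes with full statistics included 22 fixed anchors in all, spread over several roles. Added to these were the 10 largest falls and the largest rises among genes that passed and averaged 1 FPKM or more. Up to 4 genes of each list by adjusted p were given too, and other tested members were named by role. Values of some genes that the rule names are not reported here. Alternatives changed the pseudocount, filter, scaling, variance trend, unit and the libraries or members included.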

Additional observations from a re-analysis of the deposited data

Results flagged for a closer look

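Among 116 groups of 5 libraries (58 genes in each of Kcnj16_m1 and SS_WT), 6 held a library far from the others by Dixon's criterion (gap over range above 0.71), where chance gives about 1 in 20 groups. In Kcnj16_m1 both were replicate 5, with Dhx58 at 4.59 FPKM (the next at 2.93) and Oasl2 at 5.89 FPKM (the next at 4.11). In SS_WT replicate 3, Ifi44l stood at 9.32 FPKM (the next at 6.70), Stat6 at 9.56 FPKM (the next at 8.40) and Ifnar2 at 7.73 FPKM (the next at 6.41). In SS_WT replicate 5, Ifit1lb stood at 1.6 FPKM (the next at 1.15). Of these 6 genes, Dhx58 and Ifi44l passed the test lower and did so under every alternative that fitted them.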

How the results depend on the processing

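Over 21 alternatives the count of lower interferon response genes lay between 17 and 27 and their median log2 fold change between -0.34 and -0.23. The shares of all tested genes that passed under these alternatives are not given here. The medians lay between -0.25 and -0.17 for further type I targets and between -0.50 and -0.37 for interferon gamma targets. The higher count was 1, except for 2 after quantile normalization, and 1 to 2 when each library was left out in turn. That second gene was Ifit1lb under quantile normalization and without SS_WT replicate 5, and Irf2bp2 without SS_WT replicate 4. Of the 23 genes that passed, 18 passed under every alternative, and Bst2, Ddx58, Gbp2, Ifi27l2b and Mx1 did not, at adjusted p up to 0.0972, 0.0917, 0.0602, 0.0760 and 0.107. Without a filter 18 genes were lower, and with limma voom on the recovered reads, chosen after seeing the data, 22. The direction turned only in genes near 0. The log2 fold change of Ifnar1 lay between -0.046 and 0.0079 when single libraries were left out, and that of Irf9 between -0.086 and 0.048, and Irf9 was at 0.040 without the pair of SS_WT libraries with the lowest label numbers. The cause was not tested. The planned count tests were not run, because the deposited unit is FPKM. No paired analysis was possible because the labels carry no replicate numbers that groups share. Depth limits the 11 genes below the filter, with at most 30 reads in a library.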
